A study of Mus musculus with 6 samples.

Results

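Claudins and the proteins that organise them at tight junctions were followed here as 41 genes, out of 18620 genes represented by a row with a single symbol in the deposited expression table. Membership follows gene names and uses no measured value: every claudin (24 genes), occludin and its MARVEL relatives (OCLN, MARVELD1, MARVELD2, MARVELD3), the junctional adhesion molecules (F11R, JAM2, JAM3), plaque scaffolds (among them TJP1, TJP3, CGN and CGNL1) and the PAR polarity proteins (PARD3, PARD3B, PARD6A, PARD6B, PARD6G). Of the 43 rows that carried these symbols, the row of highest mean signal stood for each gene; MARVELD2 and TJP1 had a second row each. Signals came from 6 single-channel arrays, 3 hybridised with RNA of tumours labelled as controls and 3 with RNA of tumours labelled as anti-PD-1 treated.

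The labels' protocols state that 1000000 LLC cells, a mouse Lewis lung carcinoma line, were placed with Matrigel under the skin of the left flank. Control mice were given an IgG2a isotype antibody and treated mice one that binds PD-1, a receptor that restrains T cells; each dose was 250 µg, injected intraperitoneally once in 3 days. By contrast, the series text describes LLC cells alive 7 days past treatment and control cells left untreated. Genotype, strain and age of the hosts are not given in the sources used here. Whether each replicate is its own animal is not stated, and the p-values therefore reflect only how these samples vary, possibly for technical reasons.

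Tight junctions seal the space between neighbouring epithelial or endothelial cells near their apical border. Claudins are tetraspan membrane proteins that polymerise into the junction strands, and the mix of claudins in a cell sets whether the paracellular path is a barrier or a channel for selected ions. Occludin and tricellulin sit in or at the ends of the strands, ZO proteins and cingulins tie them to actin, and PAR proteins with atypical protein kinase C set the apical position of the junction. In lung, claudins line both airway and alveolar epithelium, and carcinomas often keep, lose or gain individual claudins.

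Some facts of the deposited table bear on every value below. A mouse array and the mm10 build are named in its headers, but the gene symbols are human and all 41 members carry human transcript accessions. Over all rows, 19850 carried human and 0 carried mouse transcript accessions. It places CLDN1 on chromosome 3, OCLN on 5 and CLDN10 on 13, whereas the mouse genes lie on 16, 13 and 14. The positions of these genes are therefore not those of the build named, while the species measured is unsettled. The group averages in the authors' deposited table carry the letter of the opposite group. For 40 of the 41 members they matched a robust average of the 3 signals, within 0.05 on the log2 scale, only or also with the letters C and P exchanged; 5 of the 40 matched under either naming and TJP1 under neither. Directions here follow the sample labels, and should the averages carry the true letters, what is called a rise below would be a fall. Sample medians lay between 7.71 and 7.77 log2 units. A row is called dim where its group mean lay below 5.08, the 25th percentile of the row means over 21448 rows.

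Promoter sequences of 3 genes are shown because CLDN1 and OCLN had the largest rises among the 41 genes and CLDN10 the largest fall. They are the 250 bases before annotated mouse transcript starts (RefSeq, GRCm38.p6), matched by name to the mouse gene; the species conflict above means that they need not be the promoters of the RNA measured. The Cldn1 window is chr16:26371840-26372089 on the minus strand, and Ocln has starts in windows chr13:100552499-100552748 and chr13:100552719-100552968 on the minus strand, which overlap at their ends. Cldn10 has starts in windows chr14:118787621-118787870 and chr14:118854700-118854949 on the plus strand, the first with 36% G and C and the second with 72.4%. Each line runs 5′ to 3′, and capitals mark matches on either strand to CAGGTG, an E-box bound by SNAI and ZEB repressors, to GGAATG, bound by TEAD factors, or to CCGGTT, the core of grainyhead (GRHL) sites.
Cldn1: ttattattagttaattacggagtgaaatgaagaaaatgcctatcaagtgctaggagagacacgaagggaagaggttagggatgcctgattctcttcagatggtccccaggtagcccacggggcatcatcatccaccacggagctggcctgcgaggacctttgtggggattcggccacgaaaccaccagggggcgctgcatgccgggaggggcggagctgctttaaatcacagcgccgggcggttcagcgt
Ocln first start: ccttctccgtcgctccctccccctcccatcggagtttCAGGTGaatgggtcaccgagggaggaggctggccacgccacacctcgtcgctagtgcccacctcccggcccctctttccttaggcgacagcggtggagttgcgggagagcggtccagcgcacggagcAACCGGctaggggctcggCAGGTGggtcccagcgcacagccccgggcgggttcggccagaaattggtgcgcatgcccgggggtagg
Ocln second start: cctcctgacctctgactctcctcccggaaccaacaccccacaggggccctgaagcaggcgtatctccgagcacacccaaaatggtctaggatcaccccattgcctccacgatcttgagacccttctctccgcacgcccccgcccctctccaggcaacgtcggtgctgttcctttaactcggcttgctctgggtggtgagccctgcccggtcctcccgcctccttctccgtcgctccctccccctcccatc
Cldn10 first start: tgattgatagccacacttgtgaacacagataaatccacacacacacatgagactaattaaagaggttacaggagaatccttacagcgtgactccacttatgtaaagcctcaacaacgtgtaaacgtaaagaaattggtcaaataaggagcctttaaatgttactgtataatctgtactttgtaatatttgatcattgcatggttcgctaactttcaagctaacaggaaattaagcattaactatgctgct
Cldn10 second start: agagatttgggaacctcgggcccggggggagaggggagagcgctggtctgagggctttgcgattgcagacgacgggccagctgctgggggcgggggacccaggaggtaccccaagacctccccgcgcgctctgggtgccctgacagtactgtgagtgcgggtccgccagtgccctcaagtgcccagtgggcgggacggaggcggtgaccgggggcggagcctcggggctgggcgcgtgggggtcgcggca

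Of these 5 windows the first of Ocln held matches, 2 to CAGGTG and 1 to CCGGTT, which do not overlap. The second window of Ocln, like those of Cldn1 and Cldn10, held none. Promoter windows were found for 31 of the 41 genes, 44 windows in all. CAGGTG was present in 10 of the 44, against 17.2% of all 32851 mouse windows of the same length, GGAATG in 5 of 44 against 12.6%, and CCGGTT in 6 of 44 against 5.6%. Several genes have more than 1 window, and a match is a run of letters, not a bound site. By gene, CAGGTG lay in a window of 9 of the 31, of 3 of the 9 that rose and had a window, and not in those of CLDN10. It was also not in that of TJP1, a gene whose direction is in doubt.

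Differences are anti-PD-1 minus control in log2 signal, tested with limma, and a gene is said to have risen or fallen only at a Benjamini-Hochberg adjusted p under 0.05 over all 21448 rows. By that rule 12 of the 41 genes changed (29.3%), beside 29.8% of all rows, a share close to that of the array at large. Without TJP1, whose deposited values conflict with each other, 11 of 40 changed, 9 higher and 2 lower. Of the 24 genes that were not dim in either group 10 changed (41.7%), beside 38.5% of all rows that were not dim. Higher in the libraries labelled anti-PD-1 were 9 genes (22% against 14.7% of all rows) and lower were 3 (7.32% against 15.1%). The groups did not overlap in 18 genes, 43.9% against 43.5% of all rows. A change of at least 2-fold past the threshold was seen in 6 genes, 14.6% against 7.64%. Without TJP1 it was 5 of 40 (12.5%). CLDN9 (-1.01) and CGNL1 (1.02) lay just past the limit, and with array weights their differences were -0.98 and 0.94, short of it. With 1 row per gene, as for the 41, the shares over all 18620 genes were 31.5% changed, 15.7% higher and 15.7% lower. Groups did not overlap in 45.5% of those genes, and 8.15% changed by at least 2-fold past the threshold. The median absolute difference was 0.21 in the 41 genes and 0.24 in all rows. Replicates of the 24 genes that were not dim had a median SD of 0.14, from 0.044 to 0.418, and those of the 14 dim genes one of 0.23. No test of the list as a whole was made, and nothing particular to these genes follows from the counts.

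**Figure D1:**
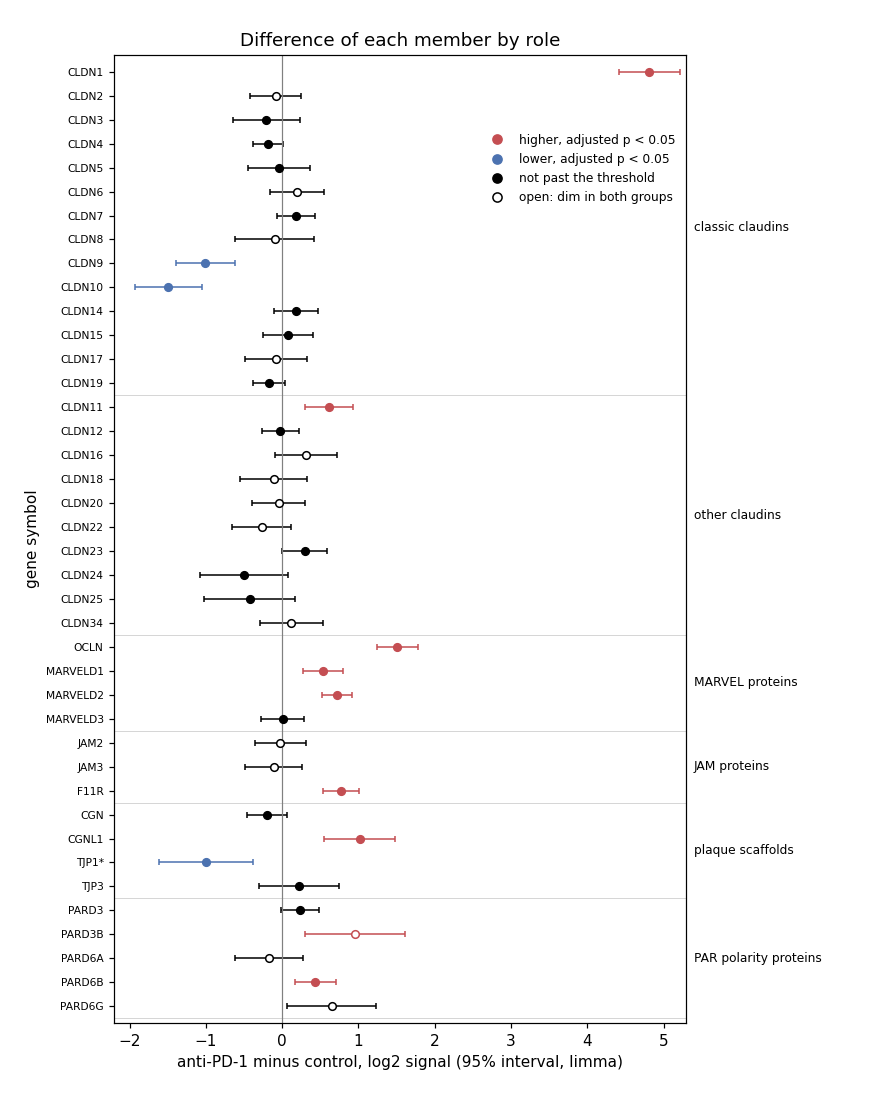
Difference in log2 signal, anti-PD-1 minus control on the x axis, for 40 of the 41 genes (y axis) in order of role, with the 95% interval from limma (n = 3 per group). Red points were higher and blue points lower at an adjusted p under 0.05, open points were dim in both groups, and the asterisk marks TJP1, whose averages in the authors' table do not follow from its signals. CLDN1 stands at 4.81, and every other gene lies between -1.49 and 1.51.

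Of the 24 claudins 4 changed, 16.7% against 29.8% of all rows. CLDN1, a barrier claudin without which the skin of mice loses water, had the largest difference of the 41 genes. CLDN11 also rose, CLDN9 and CLDN10 fell, and 20 did not pass the test. That is 8.33% higher and 8.33% lower, against 14.7% and 15.1% of all rows, and 9 of the 24 were dim in both groups.

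CLDN1 signals were 10.11, 9.50 and 9.56 in the control libraries and 14.55, 14.46 and 14.60 in the anti-PD-1 libraries. Every treated library lay above every control library, and the 3 treated libraries were closer to each other (SD 0.07) than the controls (SD 0.34). The difference was 4.81 ± 0.17 (SE, adjusted p = 9.59e-06), a 28.1-fold ratio of signals. Leaving out any 1 library left it between 4.70 and 5.01. CLDN16, the neighbour of CLDN1 in the mouse gene table at a distance of 91.3 kb with no coding gene between, is a claudin of kidney tubules needed for magnesium uptake. It was dim in both groups, with a difference of 0.32 (adjusted p = 0.229).

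CLDN10, whose isoforms form paracellular channels selective for cations or anions, had control signals of 7.64, 8.27 and 8.12 and anti-PD-1 signals of 6.64, 6.29 and 6.62. All treated libraries lay below all controls. Its difference was -1.49 ± 0.19 (adjusted p = 0.00114), a 2.82-fold ratio. The row does not separate the isoforms that start at the 2 promoters printed above.

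CLDN9, a claudin of the inner ear in mice, had control signals of 5.88, 5.87 and 5.63 against 4.94, 4.97 and 4.45. The groups did not overlap, and the treated mean of 4.79 was in the dim range while the control mean of 5.79 was not. It fell by 1.01 on the log2 scale (SE 0.16, adjusted p = 0.00362). CLDN6, an embryonic claudin that lies next to CLDN9 in the mouse gene table, was dim in both groups with a difference of 0.19 (adjusted p = 0.404).

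CLDN11, the claudin of myelin and of Sertoli cell junctions, had control signals of 9.78, 9.90 and 9.48 and anti-PD-1 signals of 10.28, 10.26 and 10.46. Again no treated library overlapped the controls. The rise was 0.61 ± 0.13 (adjusted p = 0.0124), and it passed without any 1 library (adjusted p from 0.0141 to 0.0452).

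The claudins that are typical of simple epithelia and were bright here did not pass. CLDN4, a barrier claudin and a receptor of the Clostridium perfringens enterotoxin, had signals of 14.12, 14.21 and 14.18 in controls and 13.91, 14.03 and 14.00 after anti-PD-1. Its groups did not overlap, yet the difference was small, -0.19 (95% interval -0.39 to 0.01, adjusted p = 0.143). CLDN3, its neighbour in the mouse gene table and another receptor of that toxin, had a difference of -0.21 (-0.64 to 0.23), CLDN7, a claudin that binds EPCAM, of 0.18 (-0.07 to 0.43), and CLDN12 of -0.02 (-0.26 to 0.21). The widest of these 4 intervals reaches -0.64, so smaller changes remain possible.

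CLDN2 and CLDN15, claudins that form cation channels, differed by -0.09 (adjusted p = 0.702) and 0.08 (adjusted p = 0.732), and CLDN2 was dim in both groups. CLDN18, known from lung alveoli and stomach, was also dim, with signals from 4.33 to 4.99 over the 6 libraries. CLDN5, the main claudin of vessel endothelium, had control signals of 6.97, 6.64 and 7.18 and anti-PD-1 signals of 6.75, 7.15 and 6.77, which overlap. Its difference was -0.04 (95% interval -0.45 to 0.37). The remaining dim claudins, CLDN8, CLDN17, CLDN20, CLDN22 and CLDN34, lay between -0.27 and 0.12 in difference. CLDN14 (0.18), CLDN19 (-0.18), CLDN23 (0.29), CLDN24 (-0.50) and CLDN25 (-0.42) did not pass either. CLDN25 passed without control replicate 2 (-0.69, adjusted p = 0.0343) and in none of the other 5 such fits.

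Among occludin and its relatives, 3 of the 4 MARVEL genes rose and 0 fell, beside 14.7% and 15.1% of all rows. Their median difference was 0.62 against 0.01 over all rows, and a list of this size was not tested as a group. OCLN, which encodes occludin, had control signals of 11.76, 11.44 and 11.65 and anti-PD-1 signals of 13.14, 13.21 and 13.02. The groups were far apart beside their SDs of 0.16 and 0.10. It rose by 1.51 ± 0.11 (adjusted p = 0.000123), a 2.84-fold ratio.

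MARVELD2, which encodes tricellulin, the protein of the corners where cells meet, had control signals of 11.54, 11.67 and 11.61 and anti-PD-1 signals of 12.31, 12.38 and 12.28. No libraries overlapped, and it rose by 0.72 ± 0.08 (adjusted p = 0.000914). Its second row was dim in both groups and did not pass (0.22, adjusted p = 0.681). Ocln and Marveld2 are neighbours on mouse chromosome 13, 43.2 kb apart with no coding gene between them, and they were the only pair with both genes past the threshold among 6 neighbouring pairs within 200 kb.

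MARVELD1 signals were 9.12, 9.37 and 9.04 in controls and 9.77, 9.65 and 9.71 after anti-PD-1, again without overlap. The rise was 0.53 ± 0.11 (adjusted p = 0.0109). MARVELD3, the further tight junction member of the group, overlapped fully, at 9.13 to 9.51 in controls and 9.25 to 9.42 after anti-PD-1, with a difference of 0.01 (95% interval -0.28 to 0.29).

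**Figure D2:**
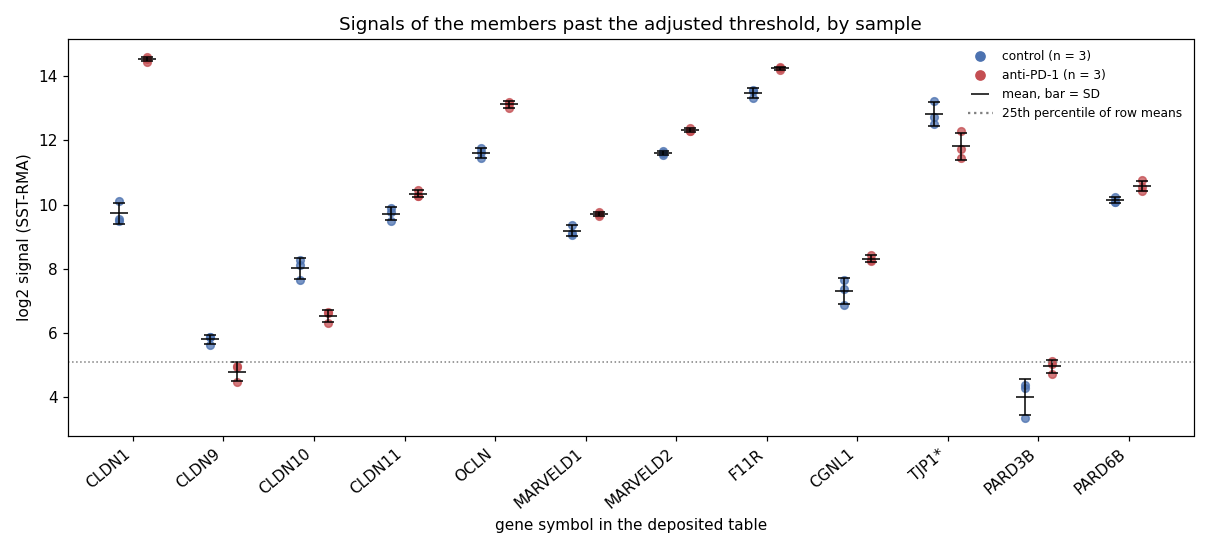
Log2 signal (y axis) in each of the 6 libraries for the 12 genes past the adjusted threshold (x axis); blue points are the 3 control and red points the 3 anti-PD-1 libraries, black marks give mean and SD, and the dotted line is the 25th percentile of row means. The groups do not overlap in any of the 12 genes; PARD3B and the treated libraries of CLDN9 lie near or under the dotted line, and the asterisk marks TJP1.

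Of the junctional adhesion molecules, immunoglobulin-like proteins that bind each other across the junction, 1 of 3 rose, beside 14.7% of all rows. F11R, which encodes JAM-A, the form of epithelial junctions, had control signals of 13.32, 13.59 and 13.53 and anti-PD-1 signals of 14.26, 14.29 and 14.20. The lowest treated library was above the highest control. It rose by 0.77 ± 0.10 (adjusted p = 0.00145), a 1.71-fold ratio. JAM2 and JAM3, known from endothelium and, for JAM3, also from germ cells, were dim in both groups, with signals of at most 4.42 and differences of -0.03 and -0.11.

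The plaque scaffolds went different ways: CGNL1 rose, TJP1 fell by its signals, and CGN and TJP3 did not pass. CGNL1, which encodes paracingulin, an adaptor that links junctions to the cytoskeleton, had control signals of 6.87, 7.36 and 7.66 and anti-PD-1 signals of 8.44, 8.23 and 8.27. The controls were spread more widely (SD 0.40 against 0.11) but stayed below every treated library. It rose by 1.02 ± 0.20 (adjusted p = 0.0082). CGN, which encodes the related cingulin, did not follow, at -0.20 (95% interval -0.47 to 0.06).

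TJP1, which encodes ZO-1, the scaffold that links claudins and occludin to actin, is the gene whose deposited values are at odds with each other. Its signals were 12.50, 12.74 and 13.23 in controls and 11.46, 11.73 and 12.28 after anti-PD-1, a difference of -1.0 ± 0.26 (adjusted p = 0.0257). The call was lost in 4 of the 6 fits that left out 1 library (without control replicate 2 or 3, or anti-PD-1 replicate 1 or 2), with an adjusted p of up to 0.0775.

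In the authors' deposited table the averages of TJP1 named C and P were 14.38 and 13.83. Both lie above all 6 signals. With the letters exchanged, as for the other members, they differ by 0.55 in the direction opposite to the signals. TJP1 is 1 of 111 such rows (0.52% of 21448), so no direction is drawn for ZO-1. Among the genes set beside the members below, such rows made up 4 of 18 regulators, 2 of 12 epithelial markers and 1 of 33 partners. The second row of TJP1 was dim, at 0.37 (adjusted p = 0.505).

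TJP3, which encodes ZO-3, had control signals of 4.67, 5.3 and 5.44 and anti-PD-1 signals of 5.55, 5.43 and 5.10. The groups overlapped, and the difference was 0.22 (95% interval -0.30 to 0.75, adjusted p = 0.517).

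**Figure D3:**
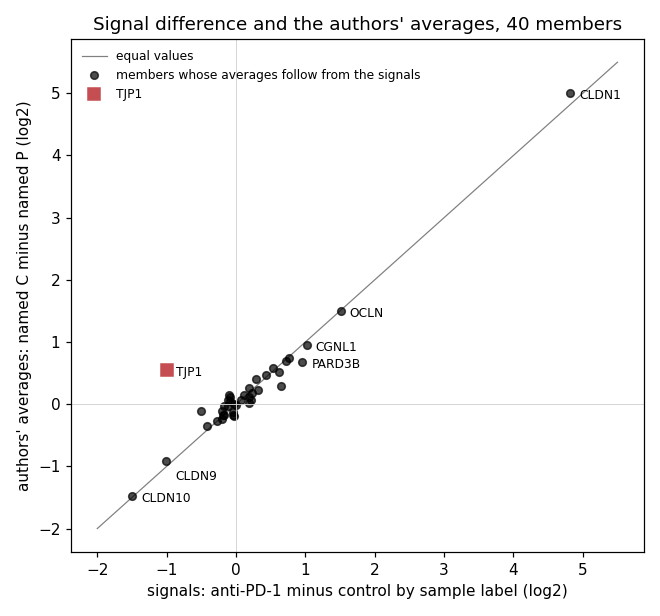
Log2 difference of the group means of the signals, taken as anti-PD-1 less control (x axis), against the difference of the authors' deposited averages, named C minus named P (y axis, log2), for 40 of the 41 genes; the line marks equal values. Most points lie on or near the line, CLDN1 and OCLN included. TJP1 (red square) is farthest from it, at -1.0 by signals and 0.55 by averages. Lesser departures include CLDN24 (-0.50 by signals, -0.11 by averages) and PARD6G (0.65 and 0.29), and some small differences change sign, as for CLDN2 (-0.09 and 0.12).

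Of the PAR polarity genes 2 of 5 rose and 0 fell, beside 14.7% and 15.1% of all rows. Both calls were lost without certain single libraries. PARD6B, an adaptor that joins CDC42 to atypical protein kinase C, had control signals of 10.09, 10.24 and 10.09 and anti-PD-1 signals of 10.43, 10.54 and 10.76. The libraries did not overlap, and the difference was 0.44 ± 0.11 (adjusted p = 0.0261). The call was lost without control replicate 1 or 3 or anti-PD-1 replicate 2 or 3 (adjusted p up to 0.0782).

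PARD3B, a relative of the PAR3 scaffold, was dim in both groups, at 4.27, 3.35 and 4.37 in controls and 4.71, 5.12 and 5.02 after anti-PD-1. Control replicate 2 stood about 1 log2 unit below the other controls. The difference was 0.95 ± 0.28 (adjusted p = 0.0391), but 0.63 (adjusted p = 0.028) without that library. It was not past the threshold without control replicate 1 or any 1 of the anti-PD-1 libraries (adjusted p up to 0.114).

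PARD3, the PAR3 scaffold itself, had signals of 10.22, 10.49 and 10.48 against 10.66, 10.58 and 10.65. They did not overlap, but the difference of 0.23 did not pass (95% interval -0.01 to 0.48, adjusted p = 0.146). PARD6A (-0.17) and PARD6G (0.65, adjusted p = 0.0976) were dim in both groups; anti-PD-1 replicate 2 of PARD6G, at 5.26, stood above the other treated libraries at 4.35 and 4.37.

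Genes that act with these proteins were read from a list of 35 junction and polarity partners, 33 of them measured. Of the 33, 8 rose and 5 fell (39.4% changed against 29.8% of all rows), with a median difference of 0.02. CXADR, an adhesion receptor of the junction that adenoviruses use, rose by 1.15 ± 0.09 (adjusted p = 0.000163), with controls from 11.04 to 11.18 and treated libraries from 12.18 to 12.35. LSR, which brings tricellulin to cell corners, rose by 0.85 ± 0.10 (adjusted p = 0.000989). INADL, the PATJ scaffold of the Crumbs complex, rose by 0.84, MAGI1 by 0.81, DLG1 by 0.68 and CRB3, the Crumbs protein of epithelia, by 0.56.

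The CRB3 call was lost in 3 of 6 fits without 1 library (control replicate 2, anti-PD-1 replicate 2 or 3, adjusted p up to 0.0558). AMOTL1, an angiomotin that binds YAP and junction scaffolds, fell by 0.98 on the log2 scale (SE 0.14, adjusted p = 0.00237), and CLMP, a CXADR relative, fell by 0.79 (SE 0.11, adjusted p = 0.00206). Without anti-PD-1 replicate 1, and likewise without anti-PD-1 replicate 3, the partners that passed as lower went from 5 to 3. MAGI3, a scaffold named here after its values were seen, passed as lower (-0.31) but lost its call in all 6 fits without 1 library. CDC42, a GTPase of the polarity complex, is a further row whose averages do not follow from its signals, and it did not pass.

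Regulators known to act on junction genes came from a list of 19 transcription and splicing factors, 18 of them measured. Of the 18, 2 rose and 4 fell (33.3% against 29.8%). That share counts SNAI1, SNAI2, ZEB1 and TWIST1 as not past, rows for which no direction is drawn below. GRHL2, an activator of claudin and cadherin genes in epithelia, had control signals of 10.60, 10.84 and 10.74 and anti-PD-1 signals of 9.42, 9.64 and 9.02. No libraries overlapped, and it fell by 1.37 on the log2 scale (SE 0.17, adjusted p = 0.00106). KLF4, an epithelial differentiation factor, fell by 1.24 (SE 0.21, adjusted p = 0.0041) into the dim range, from 6.18 to 4.94, and ESRP1, an epithelial splicing factor, fell by 0.47 (SE 0.08, adjusted p = 0.00471).

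OVOL2, a repressor of ZEB1 in epithelia, differed by -1.26 (adjusted p = 0.0261) and ELF3, an epithelial ETS factor, by 1.14 (adjusted p = 0.0245). Each call was lost in 4 of 6 fits without 1 library. Without control replicate 2 the calls among regulators went from 6 to 3, as ZEB2 (0.74, adjusted p = 0.0166, and adjusted p = 0.0507 without it), ELF3 and OVOL2 dropped out. The repressors SNAI1, SNAI2, ZEB1 and TWIST1 are all rows whose averages in the authors' deposited table do not follow from their signals. Their signal differences, between 0.39 and 0.80, did not pass, and no direction is drawn for them.

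**Figure D4:**
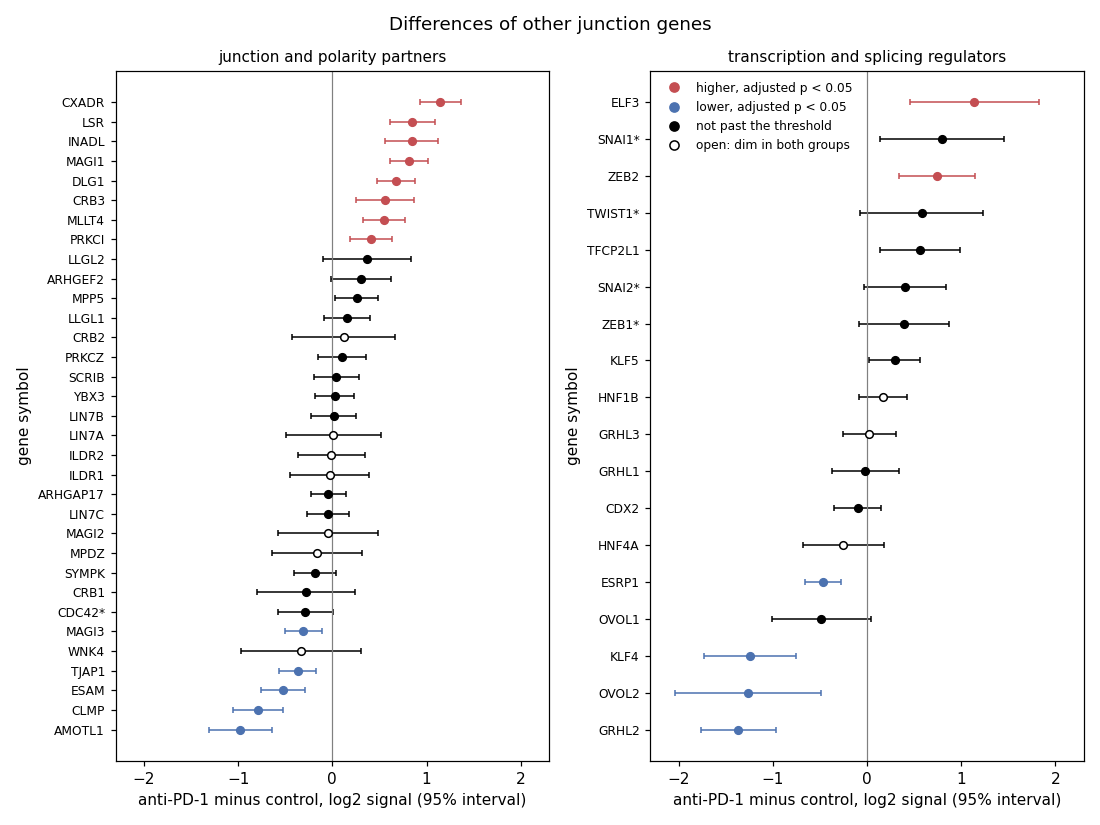
Difference in log2 signal, anti-PD-1 minus control (x axes), with 95% intervals from limma, for 33 junction and polarity partners and 18 regulators (y axes), each sorted by difference. Red and blue points were higher and lower at an adjusted p under 0.05, open points were dim in both groups, and asterisks mark rows whose averages do not follow from the signals; CXADR and ELF3 stand at the top and AMOTL1 and GRHL2 at the bottom.

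Markers of the cell types that carry these junctions were set beside the results. The mean signal over 12 epithelial markers ran from 10.82 to 10.87 in controls and from 10.93 to 10.99 after anti-PD-1. These means include the signals of MUC1 and CDH1, 2 rows whose levels are in doubt, as described below. Of the 12, 5 passed as higher: KRT7 (0.44), KRT8 (0.30), ST14 (0.64), SPINT1 (1.02) and NKX2-1 (0.83). Lower were 2, EPCAM and MUC1, so that 58.3% were called against 29.8% of all rows. MUC1, a mucin (-0.59, adjusted p = 0.0468), is a row whose averages in the authors' deposited table do not follow from its signals. Those averages were 12.37 (named C) and 9.3 (named P). With the letters exchanged they differ by 3.07 in the direction opposite to the signals, and no direction is drawn for MUC1, though it is in the counts. Keratin genes KRT7, KRT8, KRT18 and KRT19 were bright, with group means from 14.79 to 16.47, but 2 of the 12 markers were dim in both groups. MUC1 and CDH1 were dim in 1 group by their signals, though not by the authors' averages. EPCAM, an adhesion protein that binds CLDN7, stood at 15.30 in controls and fell by 0.60 (SE 0.08, adjusted p = 0.0019). CDH1, the epithelial cadherin, was at 5.86 and 5.02 by signals, a row whose averages do not follow from them. Its averages were 12.52 (named C) and 12.67 (named P), so its level is in doubt. NKX2-1, a lung lineage factor, rose by 0.83, whereas the alveolar surfactant genes SFTPC and SFTPB were dim in both groups.

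Endothelial markers, of interest for CLDN5, JAM2 and JAM3, were not called: 0 of 9 passed limma, beside 29.8% of all rows (1, KDR, at an unadjusted p under 0.05). Their mean signal ran from 5.26 to 5.47 in controls and 5.35 to 5.55 after anti-PD-1. PECAM1, CDH5 and TEK were dim in both groups, and KDR and EMCN in 1 group. The other 4, VWF, TIE1, ERG and CLEC14A, were dim in neither, with ERG highest at 7.61 in controls and 7.52 after anti-PD-1. T cell markers were dim in 5 of 6 genes, and 1 of the 6 was lower, CD4 (-0.46), itself dim in both groups. Macrophage markers had 1 of 7 lower, CD68 (-1.64). Both counts stand beside 15.1% of all rows. Fibroblast markers had 2 of 6 higher, COL1A2 (3.15) and PDGFRB (1.26), beside 14.7% of all rows. COL1A1 (0.36), DCN (0.03), LUM (0.92) and PDGFRA (0.21) did not pass. The mean signal of the 6 lay between 7.14 and 7.35 in controls and between 8.15 and 8.30 after anti-PD-1, a gap to which COL1A2 adds most. The part of these marker differences in the claudin and occludin differences was not tested. In bulk RNA, fewer cells of a type and less RNA per cell cannot be told apart.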

How the data were processed

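Expression was measured on 6 single-channel arrays, 3 control and 3 anti-PD-1. Per the file headers, the authors summarised each array with SST-RMA to deposited log2 signals per gene; the submitters' processing notes name Transcriptome Analysis Console without a version. The authors' table further holds averages, SDs, a signed fold change (a score) and a p-value for each row, deposited without samples; only its averages and SDs were used, to check rows. Of 22206 identifiers 21448 had values, equal in the series value table and the workbook (largest difference 0). Precision is limited by the number of arrays and by rounding to 2 decimals.

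The group difference was fitted by lmFit and eBayes of limma 3.58.1 under R 4.3.3 over all 21448 rows, with group as the sole term, 2-sided p-values and 95% intervals; the code was tested on simulated data. A row counts as in conflict where the authors' averages, letters exchanged, differ from a Tukey biweight of the signals by over 0.05 or the SDs by over 0.02. Genes with every signal printed are those past the threshold at 1.5-fold or more, those in conflict among the 41, and others chosen after their values were seen. From the partner list the 8 largest changes past the threshold are named, and from the regulator list all. The members and lists were chosen with earlier results of these data known. The alternatives were other normalizations, filters, priors, weights, a replicate block, removal of each library and a 2-fold limit. The values of 1 of the 41 genes are not reported here, in text or figures, though it is in the counts.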

Additional observations from a re-analysis of the deposited data

How the results depend on the processing

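Of the 12 genes past the threshold, 9 kept their call without any 1 library. With a 2-fold limit beside the threshold, 6 of the 12 genes remained, 3 of them higher, and 1 of the 13 partners, fewer by construction. Of these 6 genes, TJP1 (-1.0), CLDN9 (-1.01) and CGNL1 (1.02) lay at or just past that limit. With a trended robust prior 10 regulators passed in place of 6; the cause was not tested. Without each library in turn, 9 to 12 of the 41 genes passed (7 to 9 higher, 2 to 3 lower), 9 to 12 partners and 3 to 8 regulators. Among the single values of the 41 genes under alternatives, 597 stayed on their side of the threshold, 14 lost it and 4 gained it, and none that was called changed sign. CLDN4 passed with the trended robust prior (adjusted p = 0.0107) and with rows under the median left out (adjusted p = 0.0421), and PARD6G with that prior (adjusted p = 0.0416). Libraries of the same replicate number were not paired, as their deviations correlated at 0.013, -0.024 and 0.013 and 2 of 6 lay closest to their own number. A replicate block cost PARD3B (adjusted p = 0.0656) and PARD6B (adjusted p = 0.0549) their calls and left 10 of the 41 genes. With that block TJP1 passed at a lower adjusted p, 0.00264 in place of 0.0257, though its direction stays in doubt. The median of all rows was 0.01 in the deposited values and -0.04 after median centring, which left the 41 genes at the counts given. Leaving out the rows in conflict removed TJP1 and left 11 genes. With 3 libraries a group, the intervals of the bright claudins that did not pass reach 0.64 log2 units.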
